A study of Rattus norvegicus with 6 samples.

Results

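Mitochondrial ribosomal proteins are the proteins of the ribosome inside mitochondria, and 73 of their genes were measured in rat liver among 14217 genes in all. A member is any probe set whose platform annotation gives a single gene symbol that begins with Mrpl or Mrps followed by a digit, and 97 of 31042 probe sets met this rule, 58 for genes named after the large subunit and 39 for genes named after the small subunit. A gene is represented by its brightest probe set, taken as the mean over the 6 arrays. The samples were livers of male Wistar rats aged 6 weeks, about 150 g in weight at purchase and kept in separate cages, with 3 samples from the control diet (15P) and 3 from a low-protein diet of equal energy (5P). All rats had 4 days of commercial pellets and 4 days of training to take the control diet in a daytime window, then 8 hours on their assigned diet and 16 hours without food before the liver was collected. RNA was hybridised to Affymetrix expression arrays, 1 per sample. Values are log2 of the deposited intensities, and a difference is the low-protein mean minus the control mean. The labels do not state that each array is a separate animal, so the p-values measure the spread between these samples, which may be technical.

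Mitochondria keep a small genome of their own, whose messages encode core subunits of the respiratory chain and the ATP synthase, and a ribosome of bacterial descent translates them on the inner membrane. Its proteins are all encoded in the nucleus, made in the cytosol and imported, and they join ribosomal RNA made inside the mitochondrion. Some have relatives in bacterial ribosomes, and others were added during the evolution of mitochondria. In the hepatocyte, rich in mitochondria, this ribosome supplies the subunits that the nucleus does not encode. In whole liver, fewer cells of a type and less RNA per cell cannot be told apart.

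No mitochondrial ribosomal protein gene passed the test, and most stood slightly higher in low-protein livers. Of the 73 genes, 58 were higher and 15 lower, with a median difference of 0.09 on the log2 scale and a range of -0.33 to 0.44, so that the largest difference was 1.36-fold. Over all genes 57.6% were higher and the median was 0.03. With the arrays centred on their medians, 50 of the 73 were higher with a median of 0.06, against 50.9% and 0.00 for all genes, and with centring on the 75th percentile 63 were higher with a median of 0.14, against 67.9% and 0.08. None of the 97 probe sets had an adjusted p under 0.05 by limma's moderated test, with the p-values of all probe sets adjusted together by Benjamini-Hochberg, where 41 of 31042 (0.132%) did, and the smallest adjusted p of a member was 0.106. The figure of 41 was 17, 17 and 109 without control replicates 1, 2 and 3, and 22, 16 and 18 without low-protein replicates 1, 2 and 3, while no member passed in any of these fits.

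At an unadjusted p under 0.05, 12 member genes were higher and 2 were lower, which is 16.4% and 2.74% of them, against 8.41% and 8.02% of all genes. The 12 were Mrps6, Mrpl42, Mrpl23, Mrps2, Mrpl52, Mrpl54, Mrpl55, Mrpl18, Mrpl49, Mrps34, Mrpl35 and Mrpl50, and the 2 lower ones were Mrps18a and Mrps31. Without control replicate 2 the counts were 7 higher and 1 lower, with 6.4% of all genes higher and 6.39% lower at that level. Without low-protein replicate 3 they were 8 and 1, with 6.45% and 7.46% of all genes. Without control replicate 3 or low-protein replicate 1, too, 1 gene was lower, with 8.36% and 6.22% of all genes lower. All 3 low-protein values lay above all 3 control values for 19 member genes (26%), against 12.8% of all genes, and below them for 2 (2.74%), against 10.1%. The 95% interval of a member's difference, which is not adjusted for the number of tests, reached a median of 0.22 to either side, against 0.25 over all genes. For 60 of the 73 genes (82.2%) it lay within 0.5 of zero, against 74.9% of all genes.

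**Figure D1:**
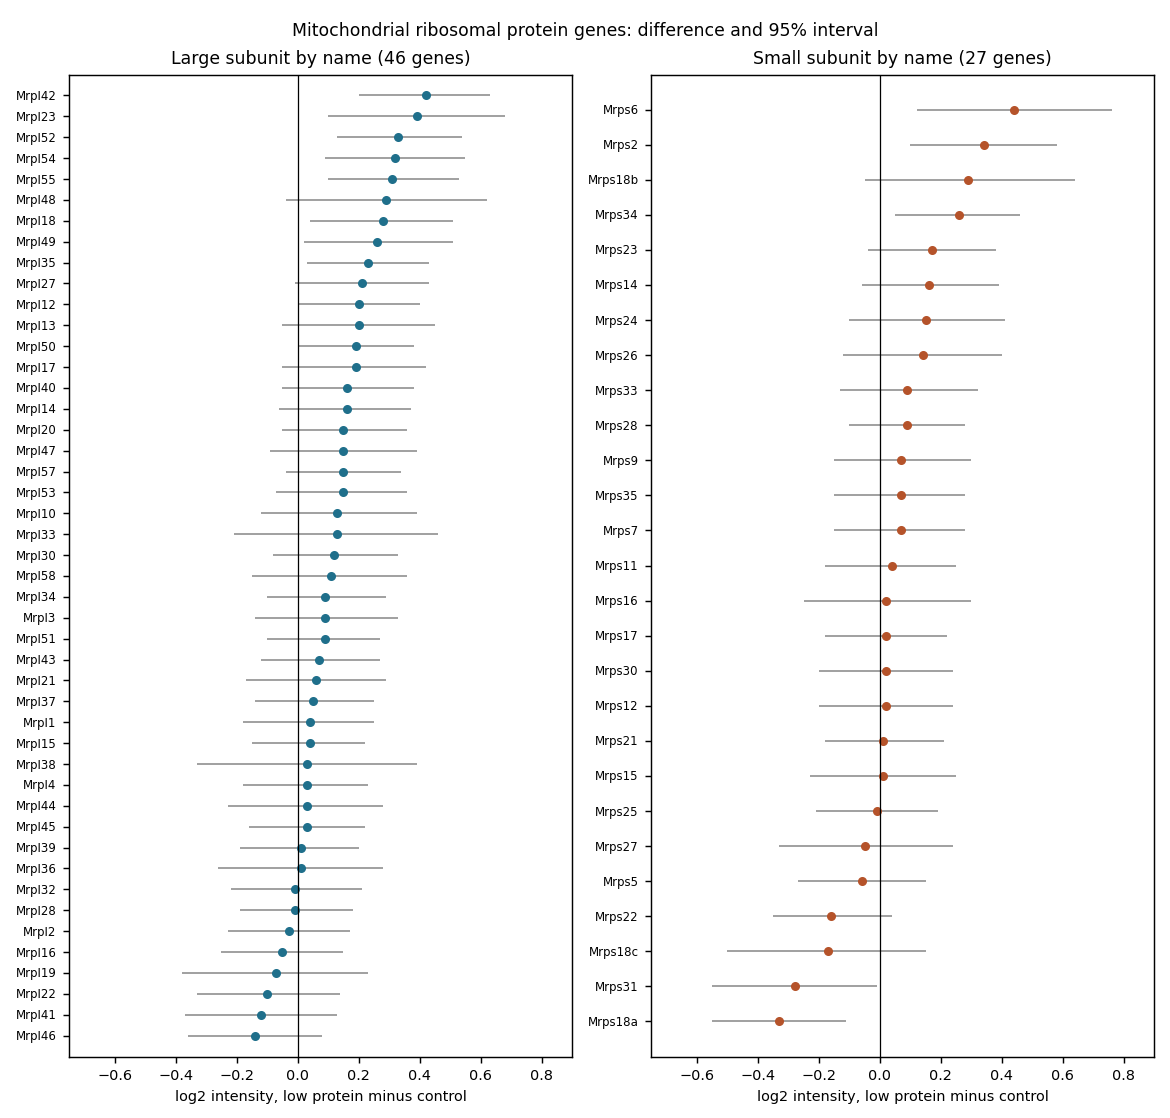
Difference in log2 intensity (low protein minus control, 3 arrays each) for the 46 member genes named after the large subunit and the 27 named after the small subunit; points are differences and lines are 95% intervals from the moderated fit. The points run from -0.33 (Mrps18a) to 0.44 (Mrps6), and 58 of 73 lie above 0.

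The member with the smallest adjusted p was Mrpl42 (gene ID 299743), which encodes a large-subunit protein specific to mitochondria. Its log2 intensity was 8.71, 8.75 and 8.56 on control replicates 1, 2 and 3, and 9.02, 9.15 and 9.10 on the low-protein arrays. Every low-protein array was above every control array, and the difference was 0.42 (SE 0.0925, 95% interval 0.20 to 0.63, limma adjusted p = 0.106). Second by adjusted p was Mrpl52, another mitochondria-specific protein of the large subunit. It measured 9.21, 9.22 and 9.05 in controls and 9.49, 9.43 and 9.57 in low-protein livers, again without overlap, for a difference of 0.33 (SE 0.0911, limma adjusted p = 0.157). A dimmer probe set of Mrpl52 gave -0.04, with an interval of -0.75 to 0.67.

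Regulatory sequence is shown for these 2 genes and for the 3 Mrps18 paralogs, whose values follow, because they are the members whose differences are described most closely. Each sequence is a RefSeq window from 250 bases before the annotated gene start to 50 bases after it, read 5′ to 3′ on the gene's strand. Capitals mark matches, on either strand, to motifs of factors known for nuclear-encoded mitochondrial genes: GCGCANGCG for NRF1, CCGGAAGT for ETS factors such as GABP, and AAGATGGCG for YY1.

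Mrpl42, chr7:32028473-32028772, minus strand, GRCr8: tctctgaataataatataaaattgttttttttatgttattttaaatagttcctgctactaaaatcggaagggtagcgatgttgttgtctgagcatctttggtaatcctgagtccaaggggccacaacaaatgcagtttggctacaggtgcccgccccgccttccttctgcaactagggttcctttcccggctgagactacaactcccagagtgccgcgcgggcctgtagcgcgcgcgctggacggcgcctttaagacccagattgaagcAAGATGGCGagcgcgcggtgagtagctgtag

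Mrpl52, chr15:31852686-31852985, plus strand, GRCr8: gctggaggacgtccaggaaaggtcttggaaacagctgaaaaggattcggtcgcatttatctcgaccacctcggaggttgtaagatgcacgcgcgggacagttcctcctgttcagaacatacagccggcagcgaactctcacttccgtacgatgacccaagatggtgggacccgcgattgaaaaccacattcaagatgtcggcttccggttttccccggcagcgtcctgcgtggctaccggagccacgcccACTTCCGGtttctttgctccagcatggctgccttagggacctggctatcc

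Mrps18a, chr9:22367331-22367630, minus strand, GRCr8: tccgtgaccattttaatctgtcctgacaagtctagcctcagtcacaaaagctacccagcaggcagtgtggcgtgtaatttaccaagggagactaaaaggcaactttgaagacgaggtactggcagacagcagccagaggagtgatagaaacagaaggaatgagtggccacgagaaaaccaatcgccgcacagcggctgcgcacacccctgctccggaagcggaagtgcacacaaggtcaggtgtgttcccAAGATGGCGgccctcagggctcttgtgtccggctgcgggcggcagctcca

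Mrps18b, chr20:2842756-2843055, plus strand, GRCr8: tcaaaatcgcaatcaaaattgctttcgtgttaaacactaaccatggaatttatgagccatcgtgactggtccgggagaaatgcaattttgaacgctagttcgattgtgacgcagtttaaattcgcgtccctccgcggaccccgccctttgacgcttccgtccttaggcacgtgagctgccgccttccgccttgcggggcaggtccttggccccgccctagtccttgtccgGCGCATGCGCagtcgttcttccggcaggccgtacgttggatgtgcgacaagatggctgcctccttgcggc

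Mrps18c, chr14:9122857-9123156, minus strand, GRCr8: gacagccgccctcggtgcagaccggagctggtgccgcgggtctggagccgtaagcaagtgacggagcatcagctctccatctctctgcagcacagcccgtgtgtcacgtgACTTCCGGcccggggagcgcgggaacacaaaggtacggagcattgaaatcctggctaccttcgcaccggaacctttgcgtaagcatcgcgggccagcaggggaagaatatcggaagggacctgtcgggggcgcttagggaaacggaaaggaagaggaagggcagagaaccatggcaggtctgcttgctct

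Mrpl42 and Mrps18a both held the YY1 letters, 19 bases after and at the annotated start. Mrpl52 and Mrps18c held the ETS letters, at the start and at position -140 relative to it, and Mrps18b held the NRF1 letters on both strands in overlapping positions. Of the 73 genes, 59 had a window in the table. Matches to NRF1 were in 11 of the 59 (18.6%), against 7.62% of 21842 windows of protein-coding genes; to ETS in 8 (13.6%), against 4.78%; and to YY1 in 8 (13.6%), against 2.07%. At least 1 of these 3 was in 25 members (42.4%) and in 13.2% of all windows, with a median GC content of 56% and 55%. In 46 windows of cytosolic ribosomal protein genes the shares were 6.52% for NRF1, 13% for ETS and 6.52% for YY1. The ETS share there was thus close to that of the members. The E-box CACGTG was in 6 members (10.2%), against 7.01% of windows, and TGATGNAA, the core of the element that ATF4 and C/EBP proteins bind in genes of the amino acid response, was in 2 (3.39%), against 3.35%. A match is a string of letters and not evidence of binding. Among the 10 members with a window that were higher at an unadjusted p under 0.05, 0 held the NRF1 letters, 1 the ETS letters and 2 the YY1 letters; among the other 49 the counts were 11, 7 and 6.

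The other large-subunit genes with larger differences came from several parts of the particle. Mrpl23, at the exit of the tunnel through which the new protein leaves, measured 9.32, 8.96 and 9.02 in controls and 9.36, 9.66 and 9.46 in low-protein livers, a difference of 0.39 (SE 0.126, limma adjusted p = 0.205). The groups did not overlap, but control replicate 1 and low-protein replicate 1 were close. Mrpl54, a protein of the stalk region where translation factors dock, measured 9.95, 9.83 and 9.82 against 10.12, 10.08 and 10.35. Its difference was 0.32 (SE 0.101, limma adjusted p = 0.203), and the groups did not overlap. Mrpl55, specific to mitochondria, measured 9.07, 8.89 and 9.07 against 9.24, 9.34 and 9.40, a difference of 0.31 (SE 0.0941, limma adjusted p = 0.185), also without overlap.

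Mrpl12, the stalk protein that recruits translation factors and is also known to bind the mitochondrial RNA polymerase, measured 9.69, 9.75 and 9.88 in controls and 10.00, 9.94 and 9.99 in low-protein livers. Its difference was 0.20 (SE 0.0886, limma adjusted p = 0.332), and a second, dimmer probe set gave 0.25 with overlapping groups. All 4 measured stalk genes (Mrpl10, Mrpl12, Mrpl53 and Mrpl54) were higher, with a median of 0.17 and a range of 0.13 to 0.32. Around the tunnel exit 6 of 7 were higher, with a median of 0.03; Mrpl45, which tethers the ribosome to the inner membrane, had 0.03 (95% interval -0.16 to 0.22). In the central protuberance, which contacts the small subunit and the transfer RNAs, 5 of 6 were higher, with a median of 0.19. There Mrpl48 had 0.29, with controls of 7.45 to 7.49. Its low-protein replicate 1, at 7.42, was below every control, and replicates 2 and 3, at 7.93 and 7.95, were above them.

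The 3 members named for their high mean intensity, Mrpl15, Mrpl33 and Mrpl17, all of the large subunit, had differences of 0.04, 0.13 and 0.19. For Mrpl15, a core protein of the large subunit, the 6 values lay between 10.36 and 10.45. Mrpl33 was -0.02 without low-protein replicate 3, on which it measured 10.49, against 9.88 on replicate 2, and 0.28 without low-protein replicate 2. Mrpl17 was 0.11 without low-protein replicate 3. At the lower end stood Mrpl46 at -0.14, Mrpl41 at -0.12, Mrpl22, which lines the exit tunnel, at -0.10, and Mrpl19 at -0.07. None of these 4 passed, their groups overlapped, and Mrpl19 was 0.03 without low-protein replicate 3.

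**Figure D2:**
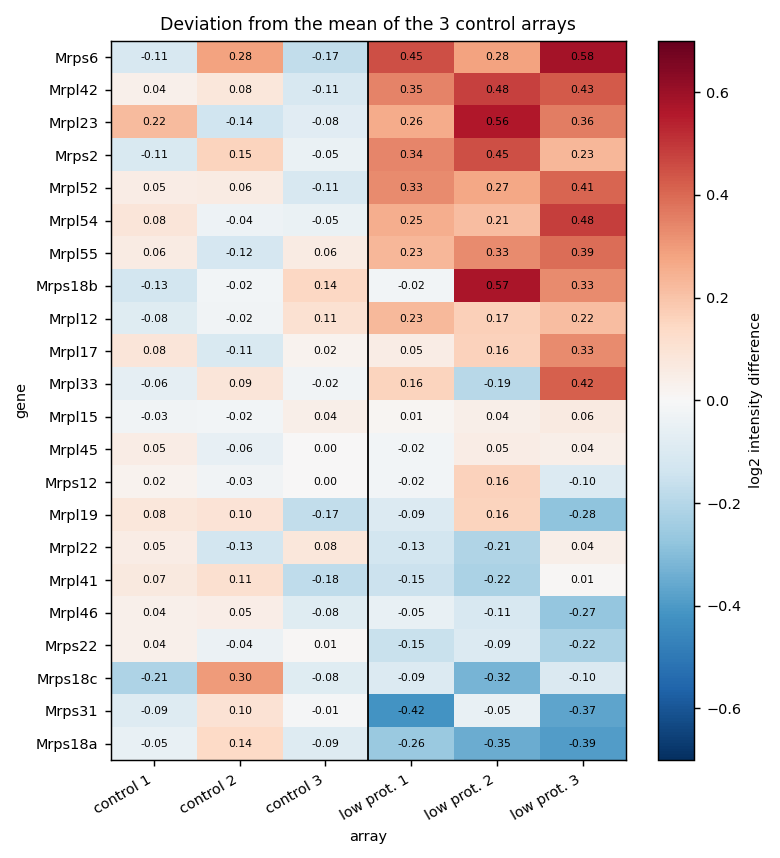
Log2 intensity on each of the 6 arrays minus the mean of the 3 control arrays, for the 22 named member genes, ordered by their difference; red is above and blue below the control mean. The low-protein arrays are above every control array for Mrps6, Mrpl42, Mrpl23, Mrps2, Mrpl52, Mrpl54, Mrpl55 and Mrpl12, and below every one for Mrps18a and Mrps22.

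Of the 27 genes named after the small subunit 20 were higher, with a median difference of 0.04, and of the 46 named after the large subunit 38 were higher, with a median of 0.11; the difference between these name classes was not tested. Mrps6, a core protein with a bacterial relative, had the largest value among all members. It measured 7.18, 7.57 and 7.12 in controls and 7.74, 7.57 and 7.87 in low-protein livers, a difference of 0.44 (SE 0.139, limma adjusted p = 0.199). Control replicate 2 and low-protein replicate 2 were both at 7.57, and their order rested on the third decimal. Mrps2 measured 7.85, 8.11 and 7.91 against 8.30, 8.41 and 8.19, without overlap. Its difference was 0.34 (SE 0.106, limma adjusted p = 0.192), and 2 dimmer probe sets gave 0.18 and 0.16.

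Mrps31, a mitochondria-specific protein, was at the other end with -0.28 (SE 0.118, limma adjusted p = 0.31). Its controls were 7.73, 7.92 and 7.81 and its low-protein values 7.40, 7.77 and 7.45, so that low-protein replicate 2 lay among the controls. Mrps22 measured 7.63, 7.55 and 7.60 against 7.44, 7.50 and 7.37, a difference of -0.16 without overlap, while its dim second probe set gave 0.17. Mrps12, whose bacterial relative governs decoding accuracy, had 0.02 (95% interval -0.20 to 0.24), and it was -0.06 without low-protein replicate 2 and -0.01 with the arrays centred on their medians.

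The Mrps18 genes are a family of 3 related proteins that descend from 1 bacterial ribosomal protein and sit at different places in the particle; the product of Mrps18a lies in the large subunit despite its name. Mrps18a was the lowest member, at 8.84, 9.03 and 8.80 in controls and 8.63, 8.54 and 8.50 in low-protein livers. Its groups did not overlap, and the difference was -0.33 (SE 0.0955, 95% interval -0.55 to -0.11, limma adjusted p = 0.174). Mrps18b measured 8.95, 9.06 and 9.22 against 9.06, 9.65 and 9.41. Low-protein replicate 1 equalled control replicate 2 to 2 decimals, and the difference was 0.29 (SE 0.152, limma adjusted p = 0.395). Leaving out low-protein replicate 2 gave 0.16, and leaving out replicate 1 of that diet gave 0.45. The probe set that stood for Mrps18c measured 7.46, 7.97 and 7.59 against 7.58, 7.35 and 7.57. Its groups overlapped, with a difference of -0.17 (SE 0.142, limma unadjusted p = 0.256). A second, dimmer probe set of the gene went the other way without overlap, at 0.35 (SE 0.125, limma unadjusted p = 0.0215, adjusted p = 0.239). The third, with a mean log2 intensity of only 3.00, gave 0.14 with overlap, so the direction of Mrps18c depended on the probe set.

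The log2 intensity of Mrps18b minus that of Mrps18a on the same array was 0.19 ± 0.21 in controls and 0.82 ± 0.35 in low-protein livers (SD, n = 3 each), a difference of 0.63 with an exact two-sided permutation p = 0.1, the smallest that 3 against 3 arrays can give. The array values ran from 0.04 to 0.42 and from 0.43 to 1.11. Over the 3 pairs of paralogs the Benjamini-Hochberg adjusted value was 0.3 for each. Mrps18c minus Mrps18a differed by 0.16 (exact permutation p = 0.2) and Mrps18b minus Mrps18c by 0.47 (exact permutation p = 0.3). Both pairs with Mrps18c used its brightest probe set, at -0.17, and were not repeated with the probe set at 0.35. Their values, and with them the adjustment, rest on that choice of probe set.

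Probe sets of 1 gene did not always point the same way. Of the 73 genes, 18 had several, and in 10 of these all gave the same sign while in 8 they differed. The widest spread was that of Mrps18c, from -0.17 to 0.35, followed by Mrpl52 (-0.04 to 0.33) and Mrpl51 (-0.13 to 0.22). In no gene did probe sets of opposite sign both have an unadjusted p under 0.05. Of the 97 probe sets 12 had a mean log2 intensity under 6, where the median over all probe sets was 5.08, but none of them stood for a gene. RefSeq also lists the gene copies Mrpl41l1, Mrpl42l1, Mrps21l and Mrps28l, and whether the probe sets of Mrpl41, Mrpl42, Mrps21 and Mrps28 tell them apart was not tested.

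**Figure D3:**
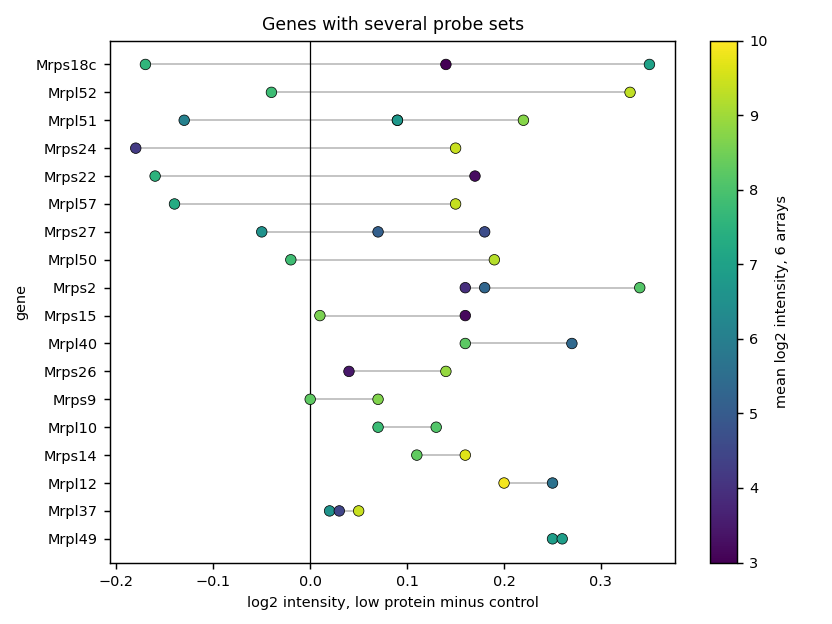
Difference in log2 intensity (low protein minus control) of every probe set of the 18 member genes that had several, with colour for mean log2 intensity over the 6 arrays. In 8 genes the points lie on both sides of 0, with Mrps18c at the top spanning -0.17 to 0.35.

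The members were not equally high on all low-protein arrays. Relative to the control mean, the 73 genes averaged 0.04, 0.12 and 0.12 on low-protein replicates 1, 2 and 3, and 0.02, 0.00 and -0.02 on the controls. The highest of a gene's 6 values was on low-protein replicate 2 for 28 genes and on replicate 3 for 29, but on replicate 1 for 3, the same number as on control replicate 3. Over all 14217 genes the order of the low-protein arrays was similar, with the highest value on replicate 2 for 2408 genes, on replicate 3 for 3606 and on replicate 1 for 1798. Genes named after the large subunit averaged 0.07, 0.14 and 0.15 on the low-protein arrays, and those named after the small subunit -0.01, 0.10 and 0.07. Of the 4 red blood cell markers measured, 3 were higher in low-protein livers. Hbb had 0.48 and Alas2 0.43, both without overlap, while Slc4a1 had 0.14 with overlap and the remaining gene was lower, at -0.06. None of the markers was listed at 0, and their summed log2 level was 25.69 to 25.99 in controls and 26.59 to 27.25 in low-protein livers. Their part in the members' values was not tested. Hepatocyte markers were bright, averaging 12.80 to 13.02 on all 6 arrays, and 4 of 8 were higher. So were 4 of 6 Kupffer cell and leukocyte markers, 4 of 8 endothelial and stellate cell markers and 1 of 4 bile duct markers. None of these genes passed the test. Low-protein replicate 3 had the lowest hepatocyte marker mean, -0.16 from the control mean, against -0.09 to 0.06 on the other arrays. Its Kupffer cell and leukocyte mean was the highest, 0.31 against -0.16 to 0.10. The endothelial and stellate mean was also highest there, 0.20 against -0.17 to 0.15, while bile duct markers were at -0.06. The part of these markers in the members' values was not tested.

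**Figure D4:**
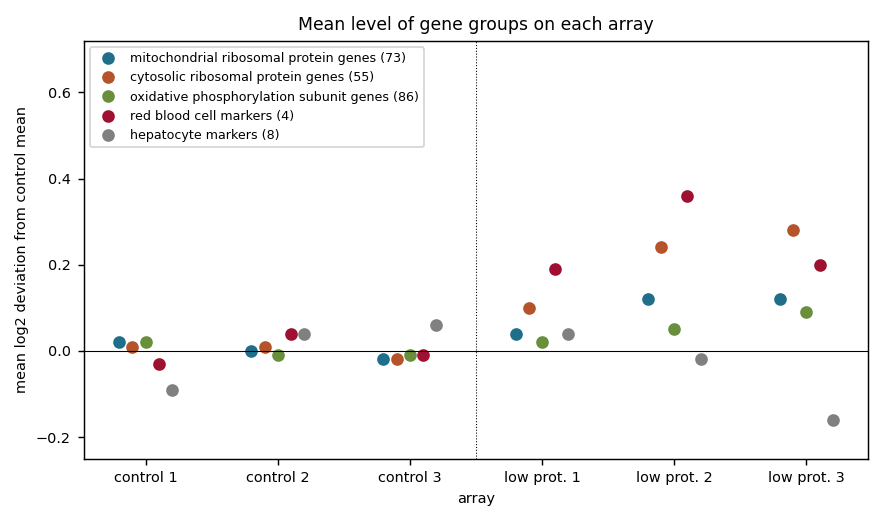
Mean log2 deviation from the control mean on each array for 5 gene groups, with the number of genes in brackets. The cytosolic ribosomal protein and oxidative phosphorylation groups were taken by gene symbol alone. The mitochondrial ribosomal protein genes stand at 0.04, 0.12 and 0.12 on the low-protein arrays, below the cytosolic ribosomal protein genes at 0.10, 0.24 and 0.28.

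Beside the members, genes with symbols of cytosolic ribosomal proteins (beginning with Rpl or Rps and a digit) had a median difference of 0.24. Of these, 47 of 55 were higher, and 30 of 55 (54.5%) were higher at an unadjusted p under 0.05. All genes had 57.6% higher and 8.41% higher at that level. The group was taken by symbol alone, so a gene with such a symbol that encodes another protein was not removed. Genes with symbols of oxidative phosphorylation subunits include the partners of the proteins that mitochondrial ribosomes make. Their symbols begin with Nduf and a, b, c, s or v, with Cox and a digit from 4 to 8, with Uqcr or Atp5, or are Sdha to Sdhd. Their median was 0.05, with 59 of 86 higher. At an unadjusted p under 0.05, 5 of 86 (5.81%) were higher, a smaller share than among all genes. This group, too, was taken by symbol alone. Its largest difference, 0.50, was that of Atp5if1, which encodes an inhibitor of the ATP synthase. No gene of either group passed over all probe sets, and the differences between the 3 groups were not tested. These comparisons rest on the same 6 arrays.

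**Figure D5:**
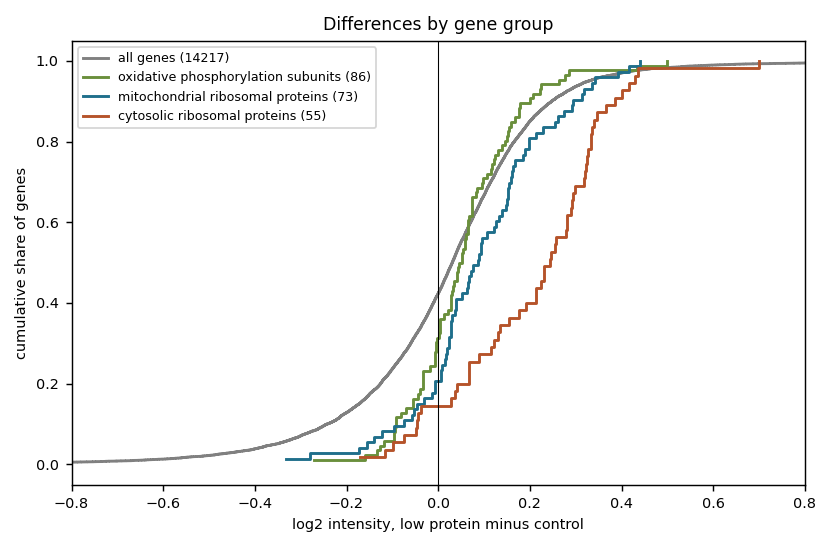
Cumulative share of genes against the difference in log2 intensity, for all genes, oxidative phosphorylation subunits, mitochondrial ribosomal proteins and cytosolic ribosomal proteins. The groups were taken by gene symbol alone. The curves cross the middle at 0.03, 0.05, 0.09 and 0.24 in that order; differences beyond 0.8 to either side are not drawn.

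Genes that work with the mitochondrial ribosome were mixed, and none of them passed the test. Of 5 further ribosomal subunits that carry other names, 2 were higher and 3 lower; Dap3, a GTP-binding protein of the small subunit, measured 8.40, 8.13 and 8.35 against 7.92, 8.14 and 8.03, a difference of -0.26 (SE 0.107, limma adjusted p = 0.292). Of 13 translation factors and related genes 6 were higher, with a median of -0.02. Mtrfr, a release factor that rescues stalled ribosomes, measured 5.28, 5.30 and 5.35 against 5.67, 5.71 and 5.55, a difference of 0.33 (SE 0.086, limma adjusted p = 0.145) without overlap. The release factor gene Mtrf1 had 0.25 and the elongation factor gene Tsfm 0.22. Of 25 assembly and ribosomal RNA modification genes 16 were higher, with a median of 0.04; the methyltransferase gene Mrm3 had -0.26, Ngrn -0.21 and the GTPase gene Noa1 -0.29.

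Of 11 genes of mitochondrial DNA transcription and maintenance 6 were higher. Tfam, which packages mitochondrial DNA and starts its transcription, measured 8.75, 8.89 and 8.77 against 9.04, 8.98 and 9.09, a difference of 0.24 (SE 0.0865, limma adjusted p = 0.25) without overlap. Among 9 nuclear regulators of mitochondrial genes 3 were higher. Pprc1, a coactivator related to PGC-1alpha, measured 6.77, 6.56 and 6.72 against 5.99, 6.23 and 5.75, a difference of -0.69 (SE 0.132, limma adjusted p = 0.0811). Every low-protein array was below every control array. Yy1 had -0.27 (SE 0.0957, limma adjusted p = 0.241), also without overlap, and Ppargc1a, which encodes PGC-1alpha, -0.44 (SE 0.218) with overlap.

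Several members start back to back with another gene. Within the RefSeq promoter table, 15 members had a gene on the opposite strand whose start lay at most 500 bases away, in 14 pairs, and 1 pair joined the members Mrpl46 and Mrps11, whose starts were 234 bases apart and whose differences were -0.14 and 0.04. In 10 pairs both genes were measured, and in 4 of these both differences had the same sign. The partners in these 4 were Tcp1, Gga3 (0.15), Ndufb5 (0.04) and Mitd1 (0.00, SE 0.15), so Mitd1 had next to no difference. Mrpl18, which is known to help carry 5S ribosomal RNA into mitochondria, had 0.28 and its neighbour Tcp1, a subunit of the cytosolic chaperonin, 0.33 (SE 0.095, limma adjusted p = 0.169). For Mrpl51 and Ncapd2 the values were 0.09 and -0.23.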

How the data were processed

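RNA of 6 rat liver samples was measured on Affymetrix arrays after 3' IVT labelling, following the protocols in the labels. The deposited values are 1 intensity for each probe set on each array, summarised by RMA per the submitters' processing notes, with no version stated there. RMA equalises the arrays, so a change shared by most genes would be hidden. The intensities were linear, and log2 was taken here. Of 31099 probe sets 57 Affymetrix controls were left out, and no intensity filter was applied. Arrays carry no read depth, and their number limits the precision. Symbols come from the platform annotation; all 73 member gene IDs were found in the RefSeq table of assembly GRCr8, with 0 symbols changed.

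Groups follow the sample titles. The linear model with empirical Bayes moderation (limma 3.58.1, R 4.3.3, two-sided) was fitted across all 31042 probe sets, with Benjamini-Hochberg adjustment over all of them, a threshold of 0.05 and 8.38 total degrees of freedom, which also give the 95% intervals. The script was tested on simulated data with shifts of 1 and 2 on the log2 scale. It recovered 98 of 100 and 100 of 100 shifted probe sets, with 10 false calls. These shifts were larger than any member difference, and smaller shifts were not simulated. Motif searches and figures used Python 3.11.15 and matplotlib 3.10.9. The alternatives were other prior variances, array centrings, quantile normalization, intensity filters, weights for arrays, a block for the replicate number, leaving out 1 array at a time, and the mean over a gene's probe sets. The members and lists were chosen with earlier results of these data known. Named with values are the 8 largest and 8 smallest differences, the 3 brightest genes, Mrpl12, Mrps12, Mrpl45 and the Mrps18 genes for their roles, and up to 3 genes of smallest p per other list. Mrpl18, Mrpl35, Mrpl40, Mrpl48, Mrpl49, Mrpl50, Mrpl51, Mrps11, Mrps34, Atp5if1 and the head-to-head partners were named after their values were seen.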

Additional observations from a re-analysis of the deposited data

How the results depend on the processing

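No member passed the test under any of the 16 alternatives, the smallest adjusted p of a member being 0.0774 with 75th-percentile centring. The median difference of the 73 genes was 0.14 with that centring, where the median of all genes was 0.08, and 0.06 with median centring, where it was 0.00; without each array in turn it ran from 0.07 to 0.10. Higher at an unadjusted p under 0.05 were 18 genes with 75th-percentile centring (12.5% of all genes), 10 with median centring (6.53%), and 7 to 14 without each array (6.4% to 8.95%). Lower were 1 with 75th-percentile centring (5.61% of all genes), 1 with quantile normalization (7.26%), and 1 to 2 without each array (5.85% to 8.36%). Over all probe sets 41 passed as deposited (26.8% of them higher), 103 with a robust prior variance, 78 with median centring (16.7% higher), 59 with 75th-percentile centring (40.7% higher), 102 with array weights, and 16 to 109 without each array. With the replicate number as a block 6 passed and no member did; same-numbered arrays did not deviate together (correlations of -0.09, -0.03 and -0.10), and 0 of 6 arrays correlated best with their own number. Of 22 named members 17 kept their sign throughout. The others were Mrps12 (-0.01 with median centring, -0.06 to 0.07 without each array, lowest without low-protein replicate 2), Mrpl19 and Mrpl33 (-0.19 to 0.03 and -0.02 to 0.28 without each array, 0.03 and -0.02 being without low-protein replicate 3), and Mrps18c and Mrps22 (0.11 and 0.01 as the mean of their probe sets); the cause was not tested. With 3 arrays a diet, even member differences of 0.42 and 0.44 (Mrpl42 and Mrps6) did not pass after adjustment.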
